A study of Mus musculus with 8 samples.

Results

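The genes described are 10 components of the unfolded protein response of the endoplasmic reticulum (ER), *Atf6*, *Ern1*, *Xbp1*, *Hspa5*, *Hsp90b1*, *Dnajb9*, *Dnajc3*, *Sdf2l1*, *Herpud1* and *Pdia4*. They were chosen by symbol, and all 10 were found among the 55385 genes of a table of liver RNA-seq counts. Each of the 10 was also among the 14340 genes that had enough reads to be tested. The study asked what loss of the splicing factor Usp39 does to the liver, and sequenced RNA of whole liver from 4 *Usp39*-HKO mice and 4 control littermates, with one library per mouse. *Usp39*-HKO mice carry *Usp39* fl/fl alleles, in which *loxP* sites flank exon 2, and a Cre transgene driven by the albumin promoter (*Alb-Cre*), which is active in hepatocytes and leaves the gene intact in most other cells of the liver. The control littermates are labelled WT, and their *loxP* and Cre alleles are not given in the sources used here. All 8 mice were males on a C57BL/6J background, were 5 weeks old and had been fasted for 16 h, so no fed liver was compared and no ER stressor was given.

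Secreted and membrane proteins fold in the ER, and hepatocytes, which release most of the proteins of blood plasma, have a large one. When unfolded proteins build up there, the sensors ATF6, IRE1α (encoded by *Ern1*) and PERK (encoded by *Eif2ak3*) act in parallel. ATF6 is cut in the Golgi to release a transcription factor, IRE1α splices *Xbp1* mRNA so that it encodes one, and PERK phosphorylates eIF2α, which slows translation and raises ATF4. ATF6 and spliced XBP1 drive genes for chaperones and for the degradation of misfolded proteins, largely through the ER stress response element (ERSE).

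These elements are shown first because they are the feature of sequence that members of this response are known to share. The promoter windows of RefSeq (GRCm38.p6, 250 bases before to 50 bases after each start) held 9 of the 10 members, all but *Atf6*, and were searched on both strands. The ERSE, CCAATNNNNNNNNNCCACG, occurred in the windows of 3 of the 9 members, against 0.137% of all 27025 genes with a window. The related ERSE-II, ATTGGNCCACG, occurred in those of 1 member, against 0.0444% of all genes. The core of another element bound by XBP1 and ATF6, TGACGTGG, was found for none of the 9 members and for 0.714% of all genes. Its reverse complement holds the letters CCACG that end the ERSE. The stretches below are read 5′ to 3′ on the strand of the gene, with the match in capitals.
*Hspa5*, chr2:34772010-34772058, plus strand, 80 to 32 bases before the start: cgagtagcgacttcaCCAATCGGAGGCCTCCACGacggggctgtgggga
*Dnajc3*, chr14:118937812-118937860, plus strand, 120 to 72 bases before the start: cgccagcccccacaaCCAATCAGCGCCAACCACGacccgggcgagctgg
*Hsp90b1*, chr10:86705518-86705671, minus strand, 227 to 74 bases before the start, with 1 match on each strand: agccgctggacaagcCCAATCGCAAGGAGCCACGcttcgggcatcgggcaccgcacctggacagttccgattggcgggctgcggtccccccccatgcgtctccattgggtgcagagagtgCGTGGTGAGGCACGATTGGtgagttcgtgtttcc
*Herpud1*, chr8:94386362-94386402, plus strand, 67 to 27 bases before the start, with the ERSE-II: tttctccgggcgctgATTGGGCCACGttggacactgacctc
*Pdia4*, chr6:47813528-47813647, minus strand, 135 to 16 bases before the start, where no full match was found: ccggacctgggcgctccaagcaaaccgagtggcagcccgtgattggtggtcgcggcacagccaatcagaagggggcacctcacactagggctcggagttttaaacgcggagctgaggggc
A match describes the letters in these windows and says nothing of which factor was bound in these livers.

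Counts on genes summed to between 8589636 and 10418450 per mouse. Scaling by TMM, which removes a shift shared by most genes, gave factors between 0.911 and 0.94 for the control libraries and between 1.01 and 1.19 for the *Usp39*-HKO libraries, and this step bears on every fold change below. *Usp39* itself, at 8.76 to 10.4 FPKM in controls and 8.07 to 8.7 in *Usp39*-HKO livers, was 0.41 lower on the log2 scale (edgeR, adjusted p = 0.0212; -0.18 and 0.247 with the library size alone), a count over all exons that does not isolate the deleted one. FPKM are counts divided by exon length and by the sum of counts of that library. The library of control mouse 4 stood apart: 15 genes of pancreatic acinar cells, which also have a large ER, summed to 870 FPKM there and to between 3.01 and 6.49 FPKM in the other 7 mice. Without this mouse 4 of the members were lower, *Herpud1*, *Pdia4*, *Hspa5* and *Hsp90b1*, and the values of each member and list without it are given at the end.

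In *Usp39*-HKO livers, 5 of the 10 members were lower than in controls and none was higher. The members that fell were *Herpud1*, *Pdia4*, *Hspa5*, *Hsp90b1* and *Dnajc3*, which encode a degradation factor, a disulphide isomerase, 2 major chaperones and a cochaperone, and their fitted levels fell by between 23.2% and 47%. The 3 members that sense unfolded proteins or carry the signal to the nucleus, *Atf6*, *Ern1* and *Xbp1*, did not pass the test, nor did *Dnajb9* and *Sdf2l1*. The test was edgeR's quasi-likelihood F test on the counts of all 14340 genes, with the Benjamini-Hochberg adjustment over all of them and a threshold of 0.05. Of all genes tested, 22.5% were called in either direction, 11.6% as lower and 10.9% as higher. No member was higher at an unadjusted p under 0.05 or in DESeq2 or limma, while 7 were lower at that unadjusted p, 6 in DESeq2 and 2 in limma on log2(FPKM + 1). At the cutoff of the study (unadjusted p under 0.05 and a log2 fold change beyond 0.5), 4 members were lower, against 9.62% of all genes. The median log2 fold change was -0.43 over the members, 9 of 10 of them below 0, and -0.0015 over all genes tested. On the same scale 12 hepatocyte markers were shifted by about as much, all 12 below 0 with a median of -0.41 and 4 called as lower.

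**Figure D1:**
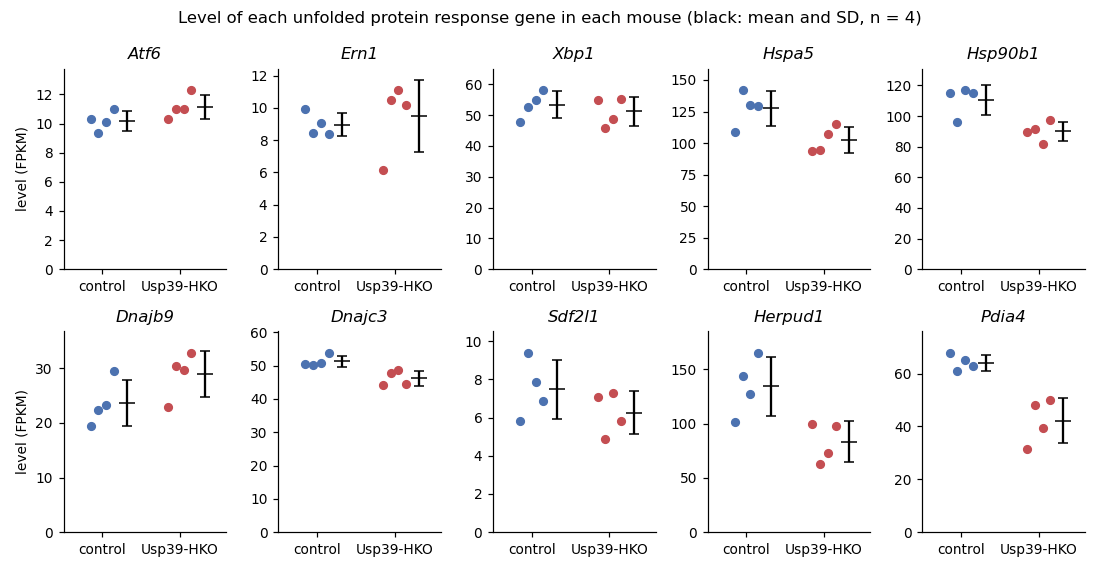
Level of each of the 10 members in FPKM (vertical axes, from 0) in the 4 control mice (blue) and the 4 *Usp39*-HKO mice (red), with the mean and SD of each group in black. All *Usp39*-HKO mice lie below all controls for *Dnajc3*, *Herpud1* and *Pdia4*, and the groups overlap for the other 7.

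Among the sensors, *Atf6* (chromosome 1, 170704674 to 170867771, minus strand, GRCm38) encodes the precursor of the transcription factor of its own branch. It measured 10.3, 9.33, 10.1 and 11 FPKM in control mice 1 to 4 and 10.3, 11, 11 and 12.3 FPKM in *Usp39*-HKO mice 1 to 4. The groups overlapped, and the log2 fold change was -0.11 (SE 0.09, 95% interval -0.29 to 0.08, adjusted p = 0.414). *Ern1* (chromosome 11, 106394650 to 106487852, minus strand) measured 9.94, 8.44, 9.03 and 8.39 FPKM in the controls and 6.17, 10.5, 11.1 and 10.2 FPKM in the *Usp39*-HKO mice. *Usp39*-HKO mouse 1 was the lowest of all 8 and the other 3 the highest, and the log2 fold change of -0.16 (SE 0.15, interval -0.49 to 0.17, adjusted p = 0.493) was 0.00 without that mouse. *Eif2ak3*, which encodes the sensor PERK and is not a member, was at a lower level still, at 2.98 to 3.46 FPKM in controls and 3.31 to 5.15 FPKM in *Usp39*-HKO livers, and did not pass the test (log2 fold change 0.15, SE 0.12, adjusted p = 0.392). A gene on the opposite strand covers 8.05% of its exon bases.

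*Xbp1* (chromosome 11, 5520659 to 5525893, plus strand) encodes the transcription factor of the IRE1α branch. It measured 47.8, 52.6, 54.8 and 58.1 FPKM in control mice 1 to 4 and 55, 45.7, 48.8 and 55.3 FPKM in *Usp39*-HKO mice 1 to 4, and the groups overlapped. The log2 fold change was -0.29 (SE 0.11, interval -0.53 to -0.05, adjusted p = 0.0752), past the threshold in DESeq2 (adjusted p = 0.0449) and without *Usp39*-HKO mouse 1 (0.0339). Counts per gene add the spliced and the unspliced mRNA together, so they do not measure the activity of IRE1α, as the level of *Atf6* does not measure the cleavage of its protein.

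*Hspa5* (chromosome 2, 34771970 to 34777547, plus strand) encodes BiP, the Hsp70 chaperone of the ER that also holds the sensors inactive. It measured 109, 142, 130 and 129 FPKM in control mice 1 to 4 and 93.6, 94.7, 107 and 115 FPKM in *Usp39*-HKO mice 1 to 4. Control mouse 1 lay below *Usp39*-HKO mouse 4 in FPKM, whereas after TMM scaling the groups were apart, at 508 to 654 CPM (counts scaled to the library) in controls and 371 to 426 CPM in *Usp39*-HKO livers. The log2 fold change was -0.55 (SE 0.11, interval -0.81 to -0.30, adjusted p = 0.00665), so the fitted level fell by 31.9%.

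*Hsp90b1* (chromosome 10, 86690209 to 86705509, minus strand) encodes GRP94, the Hsp90 chaperone of the ER. Its levels were 115, 96.2, 117 and 115 FPKM in the controls and 89.3, 91.3, 81.8 and 97.4 FPKM in the *Usp39*-HKO mice. Control mouse 2 fell apart from the other 3 controls and within the range of the *Usp39*-HKO mice in FPKM, and after TMM scaling the groups were apart at 422 to 521 and 312 to 357 CPM. The log2 fold change was -0.54 (SE 0.11, interval -0.78 to -0.30, adjusted p = 0.00624). Other annotated genes share 15.7% of its exon bases, one of them on the opposite strand, and without a stated strand setting their reads cannot be separated.

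The J-domain cochaperones set the ATPase cycle of BiP, and 2 of them are members. *Dnajc3* (chromosome 14, 118937976 to 118981697, plus strand), also known as an inhibitor of PERK, measured 50.4, 50.1, 50.9 and 53.8 FPKM in control mice 1 to 4 and 44.2, 47.7, 48.6 and 44.4 FPKM in *Usp39*-HKO mice 1 to 4. The groups did not overlap, and the log2 fold change was -0.38 (SE 0.10, interval -0.60 to -0.16, adjusted p = 0.0199). The call was lost without control mouse 3 (adjusted p = 0.06) and without control mouse 4 (0.0594). *Dnajb9* (chromosome 12, 44205559 to 44210326, minus strand), which encodes ERdj4 and keeps IRE1α inactive, measured 19.4, 22.3, 23.2 and 29.5 FPKM in the controls and 23, 30.5, 29.6 and 32.8 FPKM in the *Usp39*-HKO mice. It was the one member with a fold change above 0, a log2 value of 0.06 (SE 0.13, interval -0.22 to 0.34, adjusted p = 0.79), and the groups overlapped.

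*Sdf2l1* (chromosome 16, 17130138 to 17132383, minus strand) encodes a partner of BiP that keeps its substrates soluble. With 55 to 103 counts per mouse it was the most sparsely counted member, at 5.8, 9.38, 7.88 and 6.84 FPKM in the controls and 7.06, 4.87, 7.28 and 5.81 FPKM in the *Usp39*-HKO mice. The interval of its log2 fold change, -0.95 to -0.03 around -0.49 (SE 0.21, adjusted p = 0.122), takes in the values of *Hspa5* and *Hsp90b1*.

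*Herpud1* (chromosome 8, 94386438 to 94395377, plus strand) encodes HERP, a membrane protein that helps assemble the complex for degradation of misfolded ER proteins. It measured 101, 144, 127 and 165 FPKM in control mice 1 to 4 and 100, 62.7, 72.9 and 98 FPKM in *Usp39*-HKO mice 1 to 4. The groups were just apart, since *Usp39*-HKO mouse 1 lay next to control mouse 1, the lowest of the controls. The log2 fold change was -0.92 (SE 0.18, interval -1.32 to -0.52, adjusted p = 0.00562), so the fitted level fell by 47%. The highest control was mouse 4, which carried the acinar RNA. Over the fits that left out 1 mouse, the log2 fold change lay between -1.04 and -0.80 and passed the test in each of the 8.

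*Pdia4* (chromosome 6, 47796141 to 47813430, minus strand) encodes ERp72, a disulphide isomerase that works with BiP. It measured 67.8, 60.9, 65.1 and 62.7 FPKM in control mice 1 to 4 and 31.3, 48.1, 39.4 and 49.9 FPKM in *Usp39*-HKO mice 1 to 4. The 4 controls lay close together, every *Usp39*-HKO mouse lay well below them, and the log2 fold change was -0.85 (SE 0.12, interval -1.11 to -0.59, adjusted p = 0.00121), so the fitted level fell by 44.5%. *Pdia4*, whose promoter stretch above holds no full element, had the lowest adjusted p of the members. Only full matches were searched for, and read on the opposite strand that stretch holds an ERSE complete but for its last letter.

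Across the members, 3 of 10 had all *Usp39*-HKO mice below all controls in FPKM (*Dnajc3*, *Herpud1* and *Pdia4*), against 4.81% of all genes tested, and 5 of 10 after TMM scaling, against 12.9%. Summed over the 10, the level was 536, 595.2, 595.7 and 639.8 FPKM in control mice 1 to 4 and 460.3, 447, 457.2 and 521.2 FPKM in *Usp39*-HKO mice 1 to 4, with no overlap. FPKM are per length, so the levels of different genes can be set in order. In controls *Herpud1* (mean 134.3 ± 27.2 FPKM, SD, n = 4), *Hspa5* (127.7 ± 13.7) and *Hsp90b1* (110.8 ± 9.84) were the most abundant, and each overlapped the next. *Pdia4* followed and overlapped neither neighbour, and after it came *Xbp1* and *Dnajc3*, which overlapped. *Dnajb9* stood alone, and *Atf6*, *Ern1* and *Sdf2l1* were the lowest, each overlapping the next. In *Usp39*-HKO livers *Herpud1* (83.49 ± 18.6) came after *Hspa5* (102.5 ± 10.3) and *Hsp90b1* (89.94 ± 6.42), and these 3 overlapped. *Pdia4* (42.15 ± 8.56) came after *Xbp1* (51.17 ± 4.73) and *Dnajc3* (46.24 ± 2.23), and these overlapped as well.

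The scaling between libraries decided 3 of the 5 calls. With the library size alone, the median log2 fold change of all genes rose to 0.24, and 3525 genes were called higher and 696 lower, in place of 1561 and 1664. On that scale *Herpud1* (log2 fold change -0.68, adjusted p = 0.0161) and *Pdia4* (-0.60, 0.009) were still lower, whereas *Hspa5* (-0.31, 0.0674), *Hsp90b1* (-0.30, 0.0596) and *Dnajc3* (-0.15, 0.269) did not pass the test. All members but *Dnajb9* (0.30) lay below the median of all genes on that scale, as they did under TMM scaling.

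**Figure D2:**
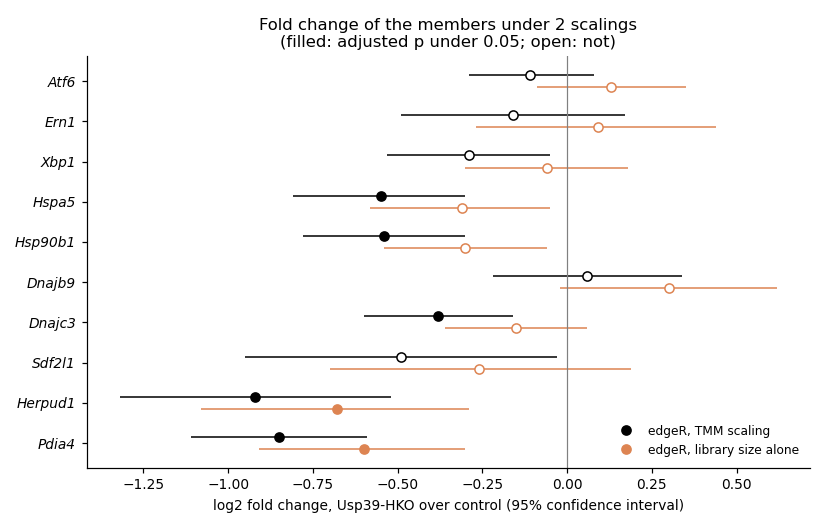
Log2 fold change of each member, *Usp39*-HKO over control (horizontal axis), with its 95% confidence interval, under TMM scaling (black) and with the library size alone (orange). Filled points have an adjusted p under 0.05; 5 are filled under TMM scaling and 2, *Herpud1* and *Pdia4*, with the library size alone.

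Ratios within one library do not depend on that choice, and were taken after these values had been seen. Since the numerators were the 5 lower members, a low ratio was to a large part fixed by that choice, and the counts are a description. Every *Usp39*-HKO mouse lay below every control for all 5 over *Atf6*, as for 8.16% of all genes over *Atf6*, for all 5 over *Eif2ak3*, as for 13.3% of all genes, and for *Pdia4* alone over *Ern1*, as for 2.45% of all genes. *Hspa5* over *Atf6* was 10.6 to 15.2 in control livers and 8.58 to 9.65 in *Usp39*-HKO livers, and *Pdia4* over *Atf6* was 5.69 to 6.57 and 3.04 to 4.36. *Herpud1* over *Atf6* was barely apart, at 9.75 to 15.4 and 5.69 to 9.73.

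The lists of related genes below were written by hand and leave out the members. Their counts stand against 11.6% lower and 10.9% higher among all genes tested. Of 20 tested ER chaperones and cochaperones, 7 were lower and none was higher. *Hyou1*, which encodes an exchange factor for BiP, measured 10.7 to 14.2 FPKM in controls and 6.99 to 8.78 in *Usp39*-HKO livers (log2 fold change -0.86, SE 0.10, adjusted p = 0.000627). *Calr*, the lectin chaperone calreticulin, measured 172 to 191 and 109 to 124 FPKM (-0.86, SE 0.11, adjusted p = 0.000758), and neither gene overlapped between groups. *Cnpy2*, also of the ER lumen, was lower as well (-0.69, SE 0.11, adjusted p = 0.00208). At an unadjusted p under 0.05, 1 gene of the list was higher and 10 lower, and DESeq2 called 1 higher and 7 lower. With the library size alone 3 were higher and 4 lower.

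Of 14 other disulphide isomerases and oxidases, 3 were lower and none was higher. *Pdia5* measured 20.3 to 34.5 FPKM in controls and 9.54 to 18.4 in *Usp39*-HKO livers (log2 fold change -1.27, SE 0.20, adjusted p = 0.00213). *Ero1lb*, an oxidase that recharges these isomerases, measured 7.81 to 9.22 and 5.2 to 6.57 FPKM (-0.81, SE 0.12, adjusted p = 0.00122). Neither overlapped between groups, while *Pdia3* did (-0.42, SE 0.12, adjusted p = 0.0278) and lost its call in 6 of the 8 fits that left out 1 mouse. Of 24 genes of ER-associated degradation, 7 were lower and none was higher, and without control mouse 4, which carried the acinar RNA, 4 were lower. They included *Sel1l*, the scaffold of the ubiquitin ligase complex that HERP joins (log2 fold change -0.54, SE 0.10, adjusted p = 0.00346), and *Edem1*, which hands over misfolded glycoproteins (-0.56, SE 0.11, adjusted p = 0.00452). In both the groups did not overlap in FPKM. In these 2 lists no gene was higher at an unadjusted p under 0.05 or in DESeq2, and limma called 2 higher in each. With the library size alone, 3 isomerases or oxidases were higher and 2 lower, and 2 degradation genes were higher and 3 lower.

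Protein entry, glycosylation and exit were covered by 3 more lists. In this order 9.52%, 14.3% and 17.6% of their tested genes were lower, against 11.6% of all genes tested. The shares called higher were 4.76%, 4.76% and 0%, against 10.9%. The lower calls of the first 2 of these lists were thus near the share of all genes. Of 21 genes of the translocon and signal peptidase, 2 were lower, *Sec63* (log2 fold change -0.56, SE 0.12, adjusted p = 0.00779) and *Srpr* (-0.50, SE 0.10, adjusted p = 0.00567), and *Ssr3* was higher (0.36, SE 0.11, adjusted p = 0.0311). With the library size alone the direction of this list turned, with 7 higher and 0 lower. Of 21 genes of N-glycosylation, 3 were lower, among them *Ganab*, a glucosidase that trims glycans for calreticulin (-0.64, SE 0.10, adjusted p = 0.00216), and *Mogs* (-0.47, SE 0.14, adjusted p = 0.0292), and *Tusc3* was higher (0.56, SE 0.14, adjusted p = 0.0168). The balance of this list turned as well, with 2 higher and 1 lower both with the library size alone and in limma. Of 17 genes of ER-to-Golgi transport, 3 were lower, *Sec16a* (-0.56, SE 0.12, adjusted p = 0.0074), *Lman1* (-0.52, SE 0.11, adjusted p = 0.00681) and *Sec23b* (-0.34, SE 0.11, adjusted p = 0.0407), and none was higher at an unadjusted p under 0.05 or in DESeq2 or limma. With the library size alone no gene of that list passed. The calls of *Ssr3*, *Mogs* and *Sec23b* were lost in 7, 5 and 6 of the 8 fits that left out 1 mouse.

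Calls among genes of the PERK arm and of the integrated stress response were mostly higher. Of 14 tested genes of this arm and response, 4 were higher and 1 was lower. This joint list is called the PERK arm below, and its RNA levels do not measure the activity of PERK. *Ddit3*, which encodes CHOP, a factor of cell death downstream of ATF4, measured 2.8, 5.06, 3.74 and 3.64 FPKM in control mice 1 to 4 and 7.33, 8.99, 14 and 11 FPKM in *Usp39*-HKO mice 1 to 4. The groups did not overlap, and the log2 fold change was 1.20 (SE 0.22, interval 0.71 to 1.68, adjusted p = 0.00401). Other annotated genes share 10.9% of its exon bases. *Trib3*, which encodes a pseudokinase that restrains this arm, was higher, at 3.54 to 7.89 FPKM in controls and 17.8 to 40.1 FPKM in *Usp39*-HKO livers (log2 fold change 1.97, SE 0.28, adjusted p = 0.00126). *Atf3*, a stress-induced repressor, was at 1.24 to 2.78 FPKM and 3.87 to 25.9 FPKM (2.56, SE 0.50, adjusted p = 0.0052). *Asns*, asparagine synthetase and a known target of ATF4, was lower, at 5.58 to 8.63 FPKM and 1.97 to 2.91 FPKM (-1.68, SE 0.19, adjusted p = 0.000557). The remaining higher call was *Psat1*, at 0.293 to 0.717 FPKM and 1.03 to 4.59 FPKM (1.55, SE 0.46, adjusted p = 0.0327). *Atf4* itself, at 35.7 to 42.5 FPKM in controls and 41.9 to 65.7 FPKM in *Usp39*-HKO livers, had a log2 fold change of 0.37 (SE 0.14, adjusted p = 0.0853), and it passed the test with the library size alone, in limma, with the stricter filter on low values and without *Usp39*-HKO mouse 2. The ratio of *Ddit3* to each of the 5 lower members was higher in every *Usp39*-HKO mouse than in every control, and for *Hspa5* it was 0.0257 to 0.0356 in control livers and 0.0783 to 0.131 in *Usp39*-HKO livers. The same held for the ratio of *Ddit3* to 65.9% of all genes tested, so it is not particular to these members.

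Of the 10 tested sensors, proteases and transcription factors that are not members, 1 was higher and none was lower (2 at an unadjusted p under 0.05, none in DESeq2 or limma). It was *Creb3l1*, a membrane-bound factor known from cells that make collagen, at 0.418 to 0.891 FPKM in controls and 0.988 to 2.11 FPKM in *Usp39*-HKO livers (log2 fold change 1.01, SE 0.28, adjusted p = 0.0247). Its call was lost in 5 of the 8 fits that left out 1 mouse. Over all of these lists together, 26 of 141 tested genes were lower and 7 higher, or 18.4% and 4.96%, with a median log2 fold change of -0.09. By list the medians were -0.25 for chaperones, -0.16 for isomerases and oxidases, -0.20 for degradation, 0.01 for the translocon, -0.07 for N-glycosylation, -0.17 for ER-to-Golgi transport, 0.37 for the PERK arm and -0.13 for the sensors and factors. With the library size alone these counts were 11 and 24, without control mouse 3 they were 17 and 3, and without control mouse 4 they were 18 and 5.

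**Figure D3:**
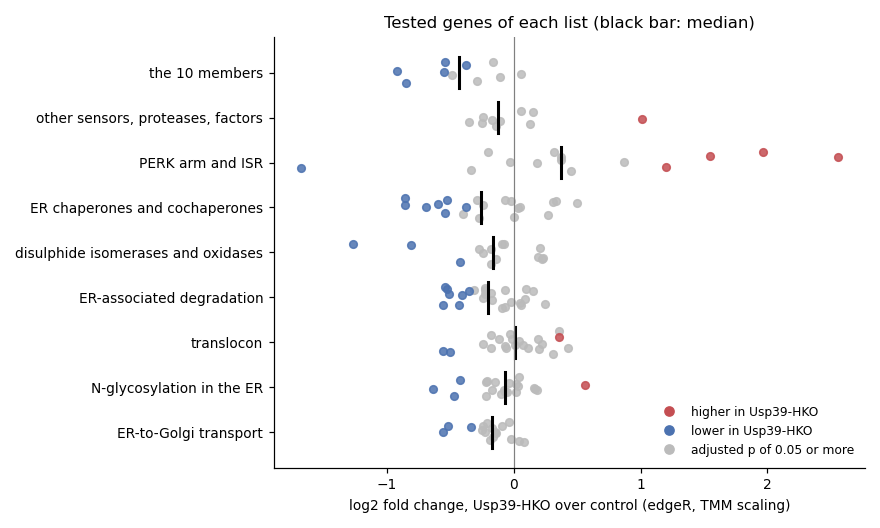
Log2 fold change, *Usp39*-HKO over control under TMM scaling (horizontal axis), of every tested gene of each list (rows), with calls as higher in red, as lower in blue and others in grey, and the median as a black bar. Lower calls stand alone among the members, chaperones, isomerases, degradation and ER-to-Golgi genes. With the library size alone 3 chaperones, 3 isomerases or oxidases and 2 degradation genes are higher. In the list of the PERK arm and integrated stress response, 4 of the 5 calls are higher.

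**Figure D4:**
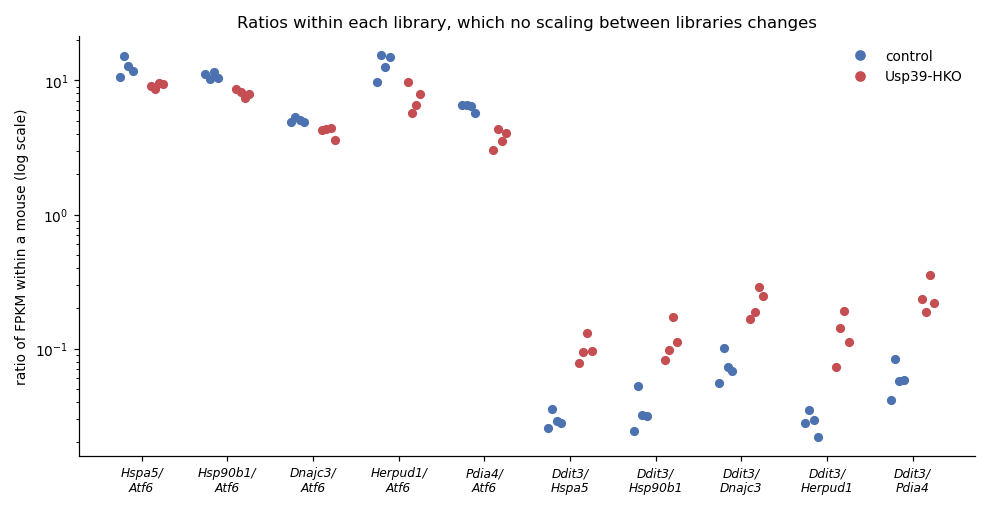
Ratio of the FPKM of 2 genes within each mouse (vertical axis, log scale) in controls (blue) and *Usp39*-HKO mice (red), for the 5 lower members over *Atf6* and for *Ddit3* over the same 5. The groups are apart in all 10, below the controls over *Atf6* and above them for *Ddit3*.

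Genes with a promoter element could be followed across the whole table. An ERSE or ERSE-II was found in the windows of 4 of the 9 members and 9 of the 119 other listed genes with a window, *Calr*, *Canx* and *Pdia6* among the latter, against 0.181% of all 27025 genes. Of the 25 genes with either element that were tested, members included, 9 were lower and 1 was higher, with a median log2 fold change of -0.27, where 11.6% and 10.9% of all genes tested were lower and higher. The 4 members with an element, *Hspa5*, *Hsp90b1*, *Dnajc3* and *Herpud1*, are among these 9. So are *Calr*, *Creld2*, *Dnajb11* and *Syvn1* of the lists written by hand. Members and lists were chosen with earlier results known. The lower calls among the 25 are thus mostly those of chosen genes counted again, and they are a description. Genes were matched by symbol, so *Ero1lb*, whose window with an ERSE stands under the symbol *Ero1b*, is not among the 25. It is 1 of the 9 other listed genes with an element, and it was called as lower in the same test. Of the 5 members whose window held neither element in full, *Pdia4* was lower, and *Ern1*, *Xbp1*, *Dnajb9* and *Sdf2l1* did not pass the test.

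Within genotypes, the levels of the 5 lower members were related with both signs. After the mean of each genotype was taken off log2 levels, Pearson's r over the 8 mice lay between -0.75 and 0.52 for their 10 pairs, with a median of -0.15. Of all 45 pairs of members, *Xbp1* and *Herpud1* gave the highest value, 0.91, and *Xbp1* and *Ern1* the lowest, -0.85. *Ern1* and *Herpud1* gave -0.84, and *Xbp1* and *Pdia4* -0.83. These are descriptions over few mice whose values share a library and its scaling. The genes outside all lists whose levels followed *Hspa5* most closely over the 8 mice, genotype difference included, were *9530082P21Rik* (r = 0.97), *Setd1b* (0.97), *Nrtn* (0.95), *Ncln* (0.95) and *Fra10ac1* (0.95).

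Whole liver RNA mixes cell types, and a gene that is lower because hepatocytes are fewer cannot be told apart from one with less RNA in each hepatocyte. Of 12 hepatocyte markers, 4 were lower (*Apob*, *Serpina1a*, *Serpina1c* and *Cps1*), all 12 had a log2 fold change below 0 with the median of -0.41 given above, and the 12, of which *Alb* makes up the largest part, summed to between 20840 and 23600 FPKM in controls and 18830 and 26140 FPKM in *Usp39*-HKO livers. Of 10 stellate cell and fibroblast markers 8 were higher, with sums of 71.63 to 84.39 FPKM in controls and 118.7 to 258.7 FPKM in *Usp39*-HKO livers. Of 6 tested cholangiocyte markers 5 were higher, with sums of 34.58 to 37.17 and 74.34 to 300.2 FPKM, and of 10 macrophage and Kupffer cell markers 8 were higher, with sums of 401 to 563.9 and 779.8 to 1104 FPKM. All 5 tested erythroid markers were lower, with a median log2 fold change of -1.57 and sums of 369.1 to 772.6 and 154.8 to 364.6 FPKM. Of 8 markers of sinusoidal endothelial cells 2 were lower, with sums of 128.5 to 145.7 and 132 to 139.9 FPKM. The part of any of these cells in the lower levels of the members was not tested. Plasma cells, which have a large ER, had markers with B cells that summed to 5.538 to 8.582 FPKM in controls and 4.298 to 17.04 FPKM in *Usp39*-HKO livers, and the defining *Mzb1* and *Tnfrsf17* were below the filter on low values.

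Without control mouse 4, the library with acinar RNA, the log2 fold changes of the lower members were -0.81 for *Herpud1* (adjusted p = 0.0224), -0.87 for *Pdia4* (0.00567), -0.56 for *Hspa5* (0.0234), -0.53 for *Hsp90b1* (0.0238) and -0.37 for *Dnajc3* (0.0594, not called). Those of the other members, none of which passed the test, were -0.54 for *Sdf2l1*, -0.26 for *Xbp1*, -0.20 for *Ern1*, -0.08 for *Atf6* and 0.17 for *Dnajb9*. Without it 5 chaperones, 2 isomerases or oxidases, 4 degradation genes, and 2 genes each of the translocon, N-glycosylation and ER-to-Golgi lists were lower, 1 N-glycosylation gene was higher, the PERK arm had the same counts of 4 higher and 1 lower, and the calls of *Creb3l1* and *Ssr3* were lost, as was that of *Usp39* (-0.41, adjusted p = 0.0547). This mouse had the highest level of the 8 for *Xbp1*, *Dnajc3* and *Herpud1*, and among the controls also for *Atf6* and *Dnajb9*.

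**Figure D5:**
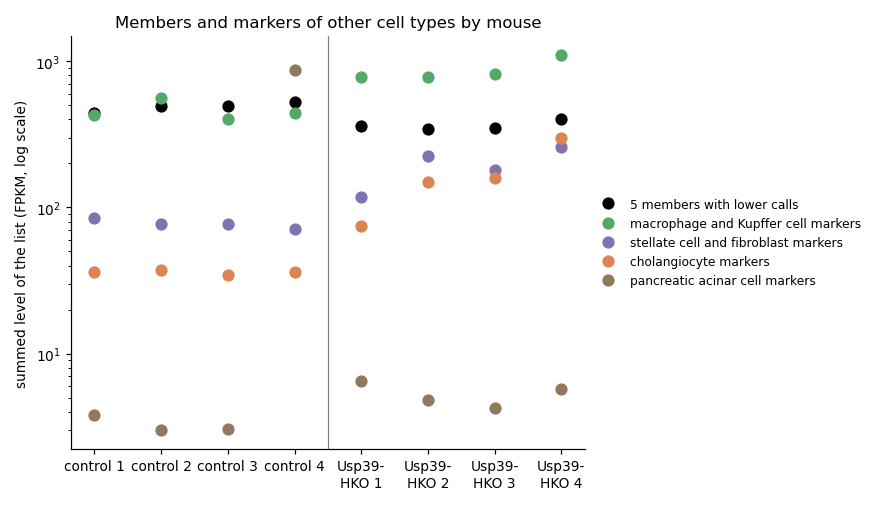
Summed level in FPKM (vertical axis, log scale) of the 5 lower members and of marker lists of 4 other cell types in each of the 8 mice, with controls left and *Usp39*-HKO mice right of the line. The 5 members sum to between 442.7 and 525.9 FPKM in controls and 344.4 and 404.8 FPKM in *Usp39*-HKO livers. They were picked by their lower calls, so this gap was to a large part fixed by that choice. The stellate cell, cholangiocyte and macrophage markers are higher in each *Usp39*-HKO mouse than in each control, and the acinar markers reach 870 FPKM in control mouse 4.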

How the data were processed

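RNA-seq was made from whole liver of 4 *Usp39*-HKO and 4 control mice, with one library per mouse. The authors trimmed paired-end reads with Trim Galore 0.6.1, aligned them to mm10 (GRCm38) with HISAT2 and counted them per gene with featureCounts, and per the labels libraries were made with the NEBNext Ultra RNA kit. The annotation release, the strand setting and the treatment of reads mapping to several genes are not given in the sources used here. The authors deposited raw counts per gene, without normalization, and FPKM, which the counts, exon lengths and totals gave back within 4.98e-07. The authors also deposited columns of their own DESeq2 comparison, namely a mean normalized signal, a log2 fold change, 2 scores (its standard error and test statistic) and p-values, and none of these was used. The table's 55699 entries hold 55385 gene identifiers, and 314 repeated entries that differ in symbol only were read once.

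The test took in every gene that reached an FPKM of 0.5 in 4 or more mice. The counts were fitted with edgeR 4.0.16 (R 4.3.3, quasi-likelihood F test, TMM factors, genotype as the only term), after the test had been checked on simulated data, and p-values were adjusted over all 14340 genes by the method of Benjamini and Hochberg. Each standard error is the fold change divided by the root of its F value. Totals of 8589636 to 10418450 counts per mouse place 3 counts at 0.288 to 0.349 CPM, which covers counting error only. The labels do not pair mice across genotypes and name no batch, so none was fitted. Alternatives were median-ratio scaling, the library size alone, no filter, a mean FPKM of at least 5, DESeq2 1.42.0, limma 3.58.1 on log2(FPKM + 1) and leaving out each mouse.

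The members and lists were chosen with earlier results of these data known. The named genes were the members, in each other list the 3 called genes with the largest fold change, *Eif2ak3*, *Atf4*, *Ddit3*, *Hyou1* and *Usp39*, and the 5 genes most like *Hspa5*. One gene that this rule names is not reported here. Others were named after their values were seen. Coordinates and exon overlap came from GENCODE vM21 on GRCm38, and promoter windows from RefSeq on GRCm38.p6.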

Additional observations from a re-analysis of the deposited data

Results flagged for a closer look

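The named genes and marker sums were examined for a mouse far from the other 3 of its group, over 102 groups, and 4 such mice were found, where chance gives about 1 in 20 groups. Control mouse 2 was low for *Hsp90b1*, at 96.2 FPKM against 115 to 117 in the other controls. *Usp39*-HKO mouse 3 was high for *Ero1lb*, at 6.57 FPKM against 5.2 to 5.39. Pancreatic acinar markers summed to 870 FPKM in control mouse 4, against 3.01 to 3.82 in the other controls. Macrophage and Kupffer cell markers summed to 1104 FPKM in *Usp39*-HKO mouse 4, against 780 to 813 in the other *Usp39*-HKO mice.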

How the results depend on the processing

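Of the 14 alternatives, the library size alone and limma on log2(FPKM + 1) each left 2 members called as lower, and the other 12 left 4 to 6. *Herpud1* and *Pdia4* were lower in all 14. Signs turned only for members that had not passed the test, *Atf6* (0.13 with the library size alone, 0.12 in limma), *Ern1* (0.09 and 0.05, and -0.26 to 0.00 over the fits without 1 mouse) and *Dnajb9* (-0.02 to 0.17 over those fits), and for *Ncln* (0.02 with the library size alone and in limma). Of all genes, 3225 were called in the main test, and 1595 of the 6672 left when a mean FPKM of at least 5 was required, a filter that keeps fewer genes. Leaving out 1 mouse gave 1931 to 3510 genes, with the lowest counts without control mouse 3 (1931), control mouse 4 (2043) and *Usp39*-HKO mouse 4 (2094), 4 to 6 members, and 20 (without control mouse 3) to 30 genes of the other lists in place of 33. No paired analysis was possible because the labels give no number that links a control to a *Usp39*-HKO mouse. With 4 mice a genotype and SEs of 0.09 to 0.21 on the log2 scale, the intervals of *Xbp1*, *Ern1* and *Sdf2l1*, which did not pass the test, still held a change as large as that of *Dnajc3*.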
